A study of Mus with 50 samples.

Results

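The livers of 50 mice were divided by the signal of 2610507I01Rik, a long non-coding RNA gene on mouse chromosome 11, into 21 livers with a low and 29 with a high signal. The groups were chosen by the log2 signal of the only probe set annotated to that gene alone: livers below 4.36 were low and the others high. Both groups together are all 50 livers of the series, and the 2610507I01Rik values are given as a description, without a test. All other genes were then compared between the groups, with attention to the genes that lie near 2610507I01Rik.

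All 50 mice were females of a backcross between C57 and FVB, carried the MMTV-Neu transgene and are listed with breast cancer. In MMTV-Neu mice the promoter of the mouse mammary tumour virus drives the Neu proto-oncogene, the rat form of Erbb2, chiefly in mammary epithelium. Low and high livers share all of these features. No age, treatment, ageing grade or genotype at single loci was at hand for single mice. Each mouse gave 1 liver array, so replicates are separate animals, named by the number in their title. The labels call the tissue liver while the extraction text speaks of purified cells. The 14 hepatocyte markers had a mean signal of 10.93 to 11.30 in the low livers and 9.49 to 11.34 in the high livers, with Alb, the serum albumin gene, at a median of 13.46 over the 50 livers. All values are log2 signals normalised between arrays, with array medians from 3.27 to 3.34. The number of arrays limits the precision.

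In a backcross, each animal carries at any locus either alleles of the recurrent strain only or alleles of both strains, and neighbouring loci are mostly inherited together. A gene whose RNA level depends on a local variant can then split the animals into separate sets, and other genes with local variants on the same chromosome can follow the same split. Over longer stretches, recombination loosens this link. Long non-coding RNAs of this kind, often named by RIKEN clone numbers, are transcribed without a protein product, and the function of 2610507I01Rik is not described here.

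2610507I01Rik fell into separate sets of livers. In the low livers the log2 signal ran from 2.84 to 3.74 with a median of 3.20, and in the high livers from 4.54 to 6.50 with a median of 5.56. The groups do not overlap because the rule divides them. The low livers lay around the array medians, and the high livers lay well above them. The mean signal was 3.23 ± 0.28 (SD, n = 21) in the low and 5.49 ± 0.44 (SD, n = 29) in the high livers, a difference of 2.26 that corresponds to a 4.78-fold higher signal. The livers just below the threshold were those of animals 187, 114, 60 and 126, with 3.74, 3.69, 3.64 and 3.62. Those just above it were animals 282, 40, 87 and 257, with 4.54, 4.76, 4.83 and 4.89. No liver lay between 3.74 and 4.54.

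**Figure D1:**
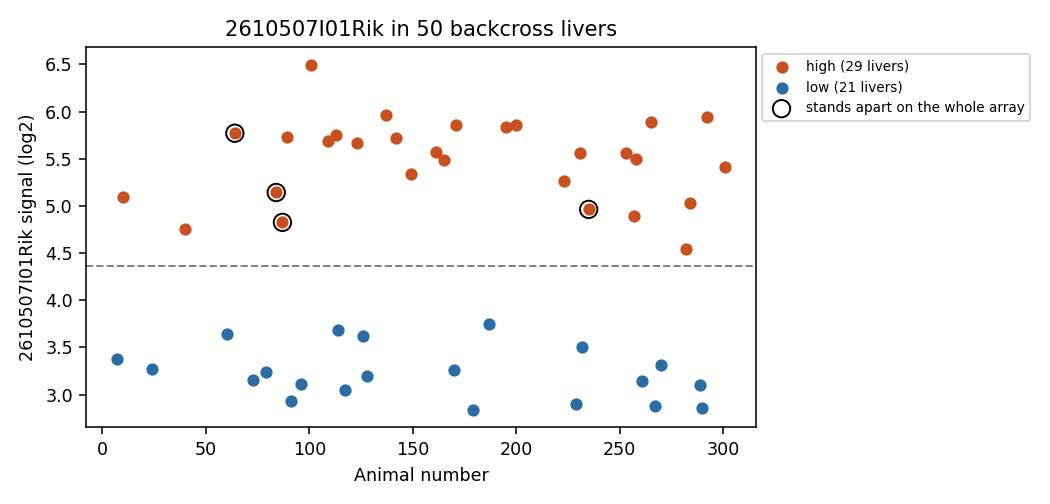
Log2 signal of 2610507I01Rik (vertical axis) in each of the 50 livers by animal number (horizontal axis), with the dashed line at 4.36. The 21 low livers sit between 2.84 and 3.74 and the 29 high livers between 4.54 and 6.50, and the 4 circled livers that stand apart on the whole array are all in the high group.

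Low and high livers were found along the whole range of animal numbers. Among animals 7 to 79 there were 5 low and 3 high livers, among animals 84 to 128 6 and 7, among animals 137 to 235 5 and 11, and among animals 253 to 301 5 and 8. These stretches come from earlier results of these data and have no label of their own. Animals 64, 84, 87 and 235, whose arrays stood apart in earlier results, were all high. Their median correlation with the other arrays over all probe sets was 0.908, 0.951, 0.962 and 0.945, against 0.959 to 0.982 for the other 46, so animal 87 lay within that range. Several of the results below, but not all, are given with and without these livers.

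Across 22179 other genes, 2 passed an adjusted p of 0.05 in limma's moderated test, and both lie on chromosome 11. That is 0.00902% of the genes tested, and 0.00451% in each direction. At an unadjusted limma p under 0.05 there were 1461 genes (6.59%), 2.63% of all genes higher and 3.95% lower in the high livers. Pttg1, which encodes securin, the inhibitor of separase that guards the separation of sister chromatids, was higher in the high livers. Gm12248, a predicted protein-coding gene, was lower. Of the 20345 genes placed on other chromosomes, 0 passed (0%), and 1291 of them (6.35%) had an unadjusted limma p under 0.05, 2.46% higher and 3.88% lower. On chromosome 11, 2 of 1648 genes passed (0.121%, and 0.0607% in each direction). There 159 (9.65%) had an unadjusted limma p under 0.05, 78 higher (4.73%) and 81 lower (4.92%). No gene of the array had groups that did not overlap (0%). The number of passing genes depended on the livers that stand apart: without them 5 genes passed (0.0225%), all on chromosome 11, and 1045 (4.71%) had an unadjusted limma p under 0.05.

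Pttg1 had the smallest p of all genes tested. Its log2 signal ran from 3.55 to 4.85 with a median of 3.89 in the low livers, and from 3.42 to 5.77 with a median of 4.57 in the high livers. The groups overlapped through few livers: 20 low livers lay between 3.55 and 4.06, and 26 high livers between 4.30 and 5.77. The other low liver, that of animal 187, had 4.85. The high livers of animals 101, 171 and 165 had 3.42, 3.94 and 4.21. Animal 187 also had the highest 2610507I01Rik signal of the low group, and animal 101, with the lowest Pttg1 signal of the series, had the highest 2610507I01Rik signal. In the fit Pttg1 was higher by 0.62 ± 0.09 (SE) in the high livers, a 1.54-fold difference (limma, adjusted p = 0.000249). This difference is larger than the spread within groups, whose SDs were 0.24 and 0.37. Within the 4 stretches of animal numbers it was 1.26, 0.51, 0.43 and 0.58. Without the 4 livers that stand apart it was 0.57 ± 0.08 (SE, limma adjusted p = 0.000109).

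Gm12248 ran the other way. Its signal was 3.43 to 4.06 with a median of 3.80 in the low livers and 3.20 to 3.73 with a median of 3.50 in the high livers. The groups overlapped between 3.43 and 3.73, and the highest values were all in low livers. The gene was lower by −0.28 ± 0.05 (SE) on the log2 scale in the high livers, a 1.22-fold difference (limma, adjusted p = 0.00481). Its level lay close to the array medians, near the lower end of the scale. Within the stretches of animal numbers the difference was −0.03, −0.43, −0.26 and −0.32, so it was near 0 among the 8 animals of the first stretch. Without the 4 livers that stand apart it was −0.26 ± 0.05 (SE, limma adjusted p = 0.0165).

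The next genes by p were chosen for naming after their values were seen, and 3 of the next 5 lie within 61 places of 2610507I01Rik among the measured genes of chromosome 11. Smcr8, a partner of the C9orf72 protein in the control of autophagy, lies 43 places after it. Its signal was 5.50 to 6.31 with a median of 5.75 in the low livers and 5.72 to 6.43 with a median of 6.003 in the high livers. Most of both ranges is shared only through the low liver of animal 179, with 6.31. The next highest low liver, that of animal 91, had 5.93. The difference was 0.28 ± 0.06 (SE) and missed the threshold (limma, adjusted p = 0.0627). It passed when genes of low signal were left out (limma, adjusted p = 0.0468), an alternative that tests fewer genes. It also passed with no trend in the limma fit (adjusted p = 0.0342). The same held without livers within 0.25 of the threshold of the split, which left out animal 282 alone (limma, adjusted p = 0.0375). Under 7 other alternatives it did not pass, among them the fit without the 4 livers that stand apart (limma, adjusted p = 0.0781).

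Atox1, the copper chaperone that hands copper to the P-type pumps of the secretory pathway, lies 61 places before 2610507I01Rik. Its signal was 5.73 to 6.84 with a median of 6.42 in the low livers and 6.14 to 7.45 with a median of 6.81 in the high livers. Low values prevailed in the low livers, but 7 high livers lay below the midpoint between the group means. The difference was 0.41 ± 0.09 (SE; limma, adjusted p = 0.129). Animals 64, 84 and 87, which stand apart, were among those 7. Without the 4 such livers the difference was 0.46 ± 0.08 (SE; limma, adjusted p = 0.00641), and with the stretches of animal numbers as a term it was 0.35 ± 0.07 (SE; limma, adjusted p = 0.0185). Within the stretches it was 0.31, 0.31, 0.38 and 0.40.

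Guk1, the guanylate kinase that converts GMP to GDP, is the measured gene just before 2610507I01Rik. Its signal was 5.42 to 6.21 with a median of 5.84 in the low livers and 5.79 to 6.55 with a median of 6.01 in the high livers. Values below 5.79 were found in low livers alone, values above 6.21 in high livers alone, and the rest of the range is shared. The difference was 0.26 ± 0.06 (SE; limma, adjusted p = 0.425) and did not pass the threshold. Within the stretches of animal numbers it was 0.31, 0.21, 0.27 and 0.25.

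**Figure D2:**
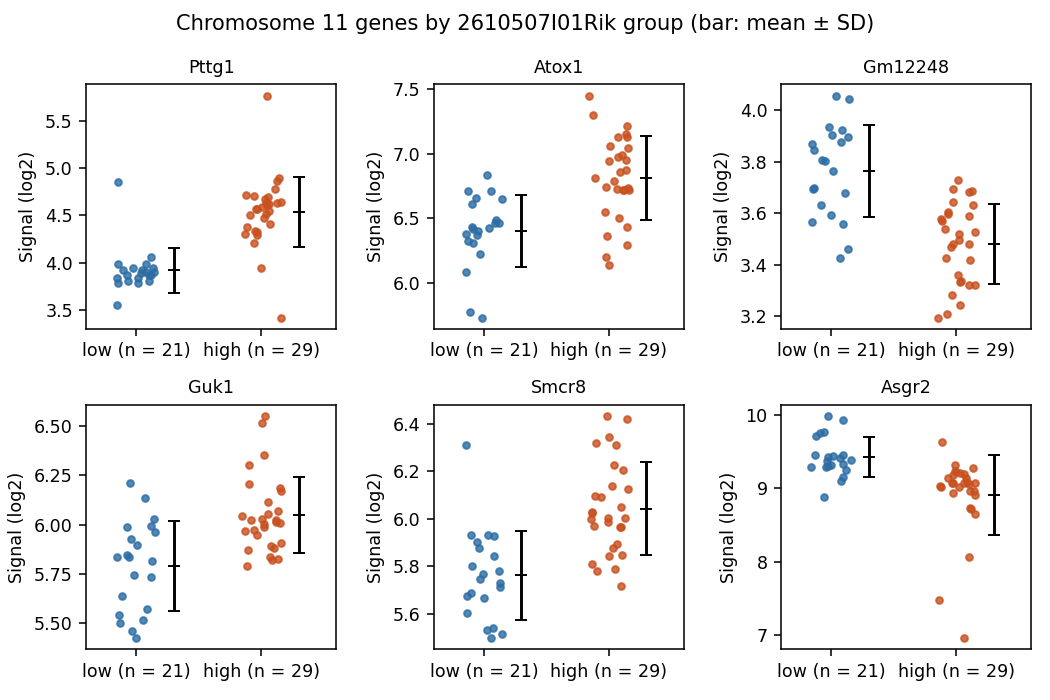
Log2 signal of 6 chromosome 11 genes (vertical axes) in the 21 low and 29 high livers, 1 point per liver, with the mean and SD of each group as a black bar. Pttg1 divides nearly as 2610507I01Rik does, with 46 of 50 livers on their own side of the midpoint between group means, whereas the groups of the other 5 genes overlap more widely.

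The 50 nearest measured genes, 25 on each side, had differences from −0.15 to 0.31. None passed the adjusted threshold (0 of 50, 0%). An unadjusted limma p under 0.05 was found for 6 (12%, against 6.59% of all genes), all 6 with positive differences (12%, against 2.63% of all genes). Of all chromosome 11 genes, 9.65% were at that p, and 4.73% were higher at it. At 26 to 100 places the share at that p was 16%. The 6 were Guk1, Zfp39, H2aw, 4933439C10Rik, 2310033P09Rik and Zkscan17. Their differences ran from 0.14 for Zkscan17 to 0.31 for Zfp39. Zfp39, a zinc finger protein gene 9 places before, had 4.54 to 5.45 in the low and 4.83 to 6.40 in the high livers, a difference of 0.31 ± 0.08 (SE; limma, adjusted p = 0.611). Its groups overlapped between 4.83 and 5.45, with the highest values in high livers and the maximum in animal 64. Without the 4 livers that stand apart the difference was 0.315 ± 0.07 (SE; limma, adjusted p = 0.0697). With the mean of its 2 probe sets, Zfp39 differed less, by 0.22 ± 0.07 (SE; limma, adjusted p = 0.741). H2aw, a histone H2A gene 4 places before, differed by 0.25 ± 0.07 (SE; limma, adjusted p = 0.738). 4933439C10Rik, another long non-coding RNA gene, 11 places after, differed by 0.21 ± 0.06 (SE; limma, adjusted p = 0.646).

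The other measured genes within 5 places of 2610507I01Rik, on either side, had smaller differences than Guk1. On the far side from Guk1 the next measured gene is Mrpl55, a protein of the large mitochondrial ribosomal subunit. It had 5.97 to 6.61 in the low and 6.04 to 6.68 in the high livers. Its difference was 0.06, with a 95% interval from −0.03 to 0.16. Arf1, a small GTPase of vesicle coat assembly, had a difference of 0.10 with an interval from −0.02 to 0.23. For 2310033P09Rik, between these, it was 0.18 with an interval from 0.04 to 0.33. Its highest signals, 8.42 and 7.94, were in animals 64 and 84. Without the 4 livers that stand apart its difference was 0.12. The secreted signalling factors Wnt3a and Wnt9a had differences of −0.04 and −0.02, with intervals from −0.13 to 0.05 and from −0.14 to 0.10, at signals near or below the array medians. On the near side Trim11, a ubiquitin ligase, differed by −0.05 with an interval from −0.17 to 0.08. Iba57, a factor for iron-sulphur protein assembly, differed by 0.03 with an interval from −0.05 to 0.11. Trim17, another ubiquitin ligase, differed by −0.02 with an interval from −0.10 to 0.06.

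Neighbours with more signal leaned toward the high livers. Of the 50, 18 had a median at or above 3.61, the median over all genes, and 32 lay below it. Differences were positive for 15 of the 18 and for 11 of the 32, with medians of 0.08 and −0.02. Over all genes, 10471 of 22179 differences were positive and the median difference was −0.00446. The share among all genes with a median at or above 3.61 was not examined. Among the neighbours are 15 olfactory receptor genes, whose products detect odours in the nose, and 14 of them lay below that level. Their differences ran from −0.08 to 0.08.

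**Figure D3:**
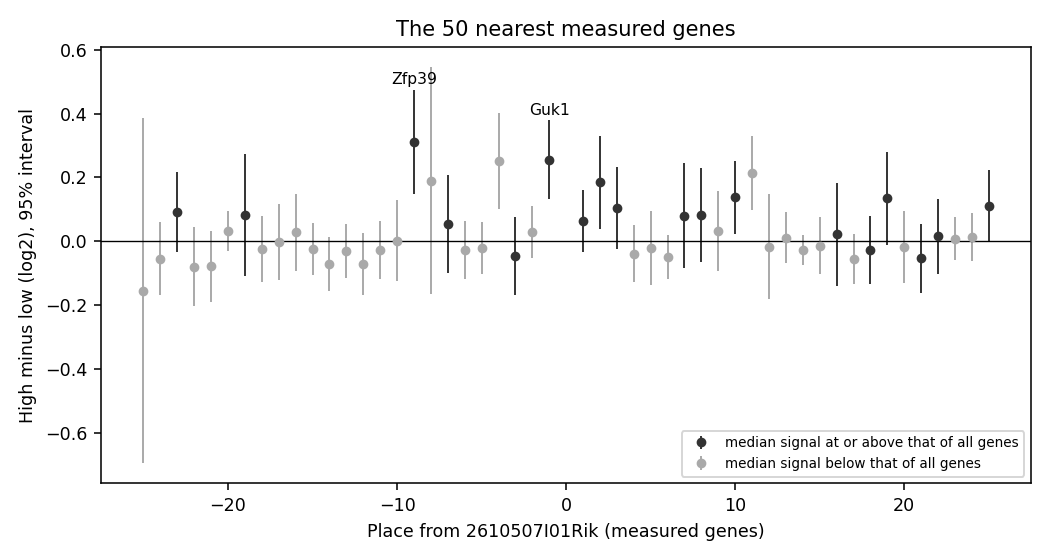
Difference between high and low livers in log2 with its 95% interval (vertical axis) for the 25 measured genes on each side of 2610507I01Rik, by place in gene order (horizontal axis). Dark points have a median signal at or above that of all genes, and Zfp39 at 0.31 and Guk1 at 0.26 are the highest of these.

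Along chromosome 11 the share of genes with a small p differed with distance from 2610507I01Rik, in a way that depended on the p used. An unadjusted limma p under 0.05 was found for 12% of genes within 25 places, 16% at 26 to 100, 12% at 101 to 200, 11.25% at 201 to 400 and 7.08% beyond, so the nearest genes did not have the highest share. Without the 4 livers that stand apart these shares were 16%, 12%, 10%, 9% and 4.60%. An unadjusted limma p under 0.001 was found for 3 of 50 genes (6%) within 25 places, 4 of 150 (2.67%) at 26 to 100 places and 1 of 200 (0.5%) at 101 to 200 places. It was found for 3 of 400 (0.75%) at 201 to 400 places and 2 of 848 (0.236%) beyond, against 20 of 20345 (0.0983%) on other chromosomes. Thus 13 of the 33 genes under that p lie on chromosome 11, 7 with higher and 6 with lower signal in the high livers. The 13 are 0.789% of chromosome 11 genes, and the 33 are 0.149% of all genes. The bands beyond 25 places were drawn after the values were seen and carry no test. Without the 4 livers that stand apart the counts by distance were 3, 5, 1, 4 and 3, and on other chromosomes 8 (0.0393%).

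**Figure D4:**
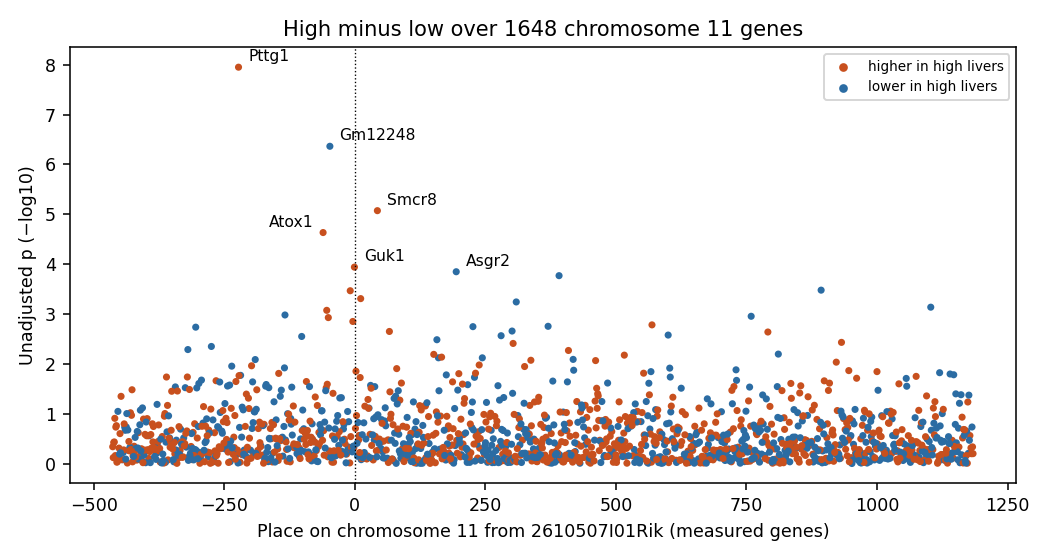
Unadjusted limma p on a negative log10 scale (vertical axis) for 1648 chromosome 11 genes by their place in gene order from 2610507I01Rik (horizontal axis, dotted line at 0), coloured by direction. Pttg1, 223 places before, and Gm12248, 48 places before, stand highest, and Smcr8, Atox1 and Guk1 follow close to the line.

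At 194 places after 2610507I01Rik lies Asgr2, a subunit of the asialoglycoprotein receptor by which hepatocytes clear glycoproteins from blood. Its signal was 8.88 to 9.99 with a median of 9.39 in the low livers and 6.95 to 9.63 with a median of 9.07 in the high livers. The lowest values of the high group belong to livers that stand apart, with 6.95 in animal 64, 7.48 in animal 235, 8.06 in animal 84 and 8.65 in animal 87. The difference was −0.52 ± 0.13 (SE; limma, adjusted p = 0.442) over all livers. Without those 4 it was smaller, at −0.34 ± 0.07 (SE), and passed the threshold (limma, adjusted p = 0.0336).

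Ubtd2, a gene for a protein with a ubiquitin-like domain, lies 259 places before 2610507I01Rik, beyond Pttg1. Its signal was 4.78 to 5.64 in the low and 4.42 to 6.32 in the high livers. Over all livers it differed by −0.24 ± 0.10 (SE; limma, adjusted p = 0.738), and without the 4 livers that stand apart by −0.39 ± 0.07 (SE; limma, adjusted p = 0.00641). Of the 5 genes called without those livers, Pttg1 and Atox1 were higher and Ubtd2, Gm12248 and Asgr2 lower in the high group.

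How far single livers kept to their group was read from the midpoint between the group means of each gene. At Pttg1, 4 of 50 livers lay on the other side of it. The count was 11 at Gm12248 and Asgr2, 13 at Atox1 and Smcr8, and 15 at Guk1, the nearest of these genes to 2610507I01Rik. Over Pttg1, Gm12248, Smcr8, Atox1 and Guk1, 12 livers lay on their own side at all 5 genes, 21 crossed at 1, 16 at 2 and 1 at 3. The liver that crossed at 3, at Pttg1, Atox1 and Guk1, was that of animal 187. These counts include livers close to the midpoint and carry no test.

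The genes most like 2610507I01Rik over the 50 livers were largely from chromosome 11. Their r was taken with the same 2610507I01Rik values that made the groups, so it is no separate support. By the size of Pearson's r, the first 10 were Pttg1 (0.647), Atox1 (0.566), Gm12248 (−0.559), Tmem232 (−0.556), Zfp39 (0.551), 4933439C10Rik (0.550), Tmem37 (−0.546), Enam (−0.535), Smcr8 (0.532) and Lyzl6 (−0.529). Of these 10, 7 lie on chromosome 11, which holds 1648 of the 22179 genes tested. Tmem232, Tmem37 and Enam lie on chromosomes 17, 1 and 5. The r values describe arrays that share a normalisation and were ranked over all genes, so they are given without a p.

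No gene on another chromosome passed the threshold (0 of 20345), and those named here are among the smallest p there or the largest differences. Csad, which makes the taurine precursor hypotaurine, had 5.67 to 9.46 with a median of 7.56 in the low livers and 5.01 to 8.28 with a median of 6.27 in the high livers. Values were spread widely in both groups. The difference was −1.01 ± 0.26 (SE; limma, adjusted p = 0.611). Mest, an imprinted gene, differed by 0.53 ± 0.15 (SE; limma, adjusted p = 0.646), and Serpinb9e, a serine protease inhibitor gene, by −0.27 ± 0.06 (SE; limma, adjusted p = 0.425). The highest Mest signals, 7.18 and 6.67, were in animals 235 and 64, which stand apart. Its difference without such livers is not given here. Pctp, a phosphatidylcholine transfer protein gene of chromosome 11 that lies 569 places after 2610507I01Rik, had the largest positive difference of all genes, 0.86 ± 0.26 (SE; limma, adjusted p = 0.738).

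Other genes that divide the livers of this series had ranges that overlapped between the groups, and none was called (0 of 3 by limma, with 0 at an unadjusted p under 0.05). Serpina1d, an alpha-1 antitrypsin gene on chromosome 12, had medians of 11.62 in the low and 11.48 in the high livers and a difference of −0.06, with a 95% interval from −1.78 to 1.65. B4galnt1, a ganglioside synthesis gene on chromosome 10, had medians of 6.10 and 5.76. Its difference was 0.10 with an interval from −0.64 to 0.83. Gm3893, a predicted gene on chromosome 4, had medians of 5.54 in the low and 3.40 in the high livers, with ranges of 3.12 to 6.42 and 3.05 to 6.45. Its difference in means was −0.58 with an interval from −1.30 to 0.14. The spread within the low livers was large for these genes, with SDs of 3.22, 1.44 and 1.30.

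Genes of chromosome 11 with known roles in liver, growth or immunity were examined as a list of 69, of which 63 were measured. None was called (0 of 63). At an unadjusted limma p under 0.05, 6 of the 63 had positive and 3 negative differences. Of all chromosome 11 genes, 4.73% were higher and 4.92% lower at that p, and of all genes 2.63% and 3.95%. With both directions together these shares were 9.65% and 6.59%. The median difference of the list was 0.08. Shbg, the sex hormone binding globulin gene, differed by −0.11 ± 0.03 (SE), Slfn8 of the Schlafen family by 0.27 ± 0.10 (SE), and Il13, a cytokine gene, by 0.10 ± 0.04 (SE). Top2a, the topoisomerase of dividing cells, had 2.58 to 3.96 in the low and 2.82 to 8.77 in the high livers. Its difference was the largest of the 9, 0.61 ± 0.28 (SE), and 0.34 without the 4 livers that stand apart. The unadjusted limma p of these 4 genes stayed under 0.05 without those livers. The lipid regulator Srebf1, 30 places after 2610507I01Rik, differed by −0.39 ± 0.17 (SE) over all livers and by −0.20 without the livers that stand apart. Erbb2, the mouse counterpart of the transgene, had 3.20 to 3.85 in the low livers and 3.13 to 9.65 in the high livers, with medians of 3.47 and 3.49. Its highest value was in animal 161, whose mean mammary epithelium signal of 9.09 was also the highest of the series. The difference of 0.26 had a 95% interval from −0.25 to 0.77.

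Lists of liver pathways gave no called gene, and the shifts of the lipid lists were smaller without the 4 livers that stand apart. The count of called genes was 0 in each of the 7 pathway lists and 10 marker lists. All 9 measured cholesterol synthesis genes were lower in mean signal in the high livers, with a median difference of −0.40, and 7 had an unadjusted limma p under 0.05, against 3.95% of all genes with a lower signal at that p. Fdps, a prenyl transferase of that pathway, differed by −0.60 ± 0.23 (SE). The mean signal of the list was 8.08 to 9.56 in the low livers, and 6.67, 6.59, 6.30 and 7.78 in animals 64, 84, 87 and 235. Without these 4 livers the median difference was −0.17 and none of the 9 had an unadjusted limma p under 0.05. Lipogenesis genes had a median difference of −0.27 with these livers and −0.03 without them.

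Oxidative lists had medians near that of all genes. The 13 measured primary antioxidant enzymes had a median difference of −0.02, with 5 higher and 8 lower in the high livers. Sod1, the cytosolic superoxide dismutase, differed by −0.07 and Cat, the catalase, by −0.08, with 95% intervals from −0.21 to 0.07 and from −0.26 to 0.11. The 13 measured NRF2 targets, genes of the oxidant response, had a median difference of −0.05. The 10 measured p53 target and senescence genes had a median of 0.06. Ccng1, a cyclin induced by p53 that lies 228 places before 2610507I01Rik on chromosome 11, differed by 0.25 ± 0.11 (SE; limma, adjusted p = 0.738).

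Interferon response genes had a median difference of 0.26, with 12 of 13 positive, and a median of 0.13 without the 4 livers that stand apart. Of the 13, 2 were higher at an unadjusted limma p under 0.05, against 2.63% of all genes. Without those livers 0 of them were at that p. The list's mean signal was 3.90 to 5.60 in the low and 3.87 to 6.46 in the high livers. The acute phase list had a median of −0.02.

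Markers of other cell types overlapped widely between groups, and their part in the results above was not tested. In whole tissue, fewer cells of a type and less RNA per cell cannot be told apart. Kupffer cell markers, of the resident liver macrophages, had a median difference of 0.21 (10 of 11 positive), with mean signals of 6.15 to 8.37 in the low and 6.46 to 10.27 in the high livers. Neutrophil markers had 0.21 (12 of 12 positive), with 3.06 to 4.79 and 3.15 to 4.96. Sinusoidal endothelial markers had 0.17 (9 of 9 positive), with 6.62 to 8.45 and 7.38 to 8.83, and Lyve1, a hyaluronan receptor of these cells, differed by 0.84 ± 0.31 (SE; limma, adjusted p = 0.738). T and NK cell markers had 0.19 (10 of 10 positive), with 3.25 to 4.28 and 3.17 to 6.37. Without the 4 livers that stand apart these medians were 0.17, 0.15, 0.11 and 0.08. Hepatocyte markers had −0.09 with 13 of 14 negative, and 0.00429 without those livers. Over all genes, 10471 of 22179 differences were positive and 11708 negative. At an unadjusted limma p under 0.05, 1 neutrophil, 2 endothelial and 1 stellate cell and fibroblast marker were higher and 1 hepatocyte marker was lower. No Kupffer cell or T and NK cell marker was at that p, against 2.63% of all genes higher and 3.95% lower. The medians of the B and plasma cell, stellate cell, cholangiocyte, mammary epithelium and erythroid lists were 0.05, 0.01, −0.14, 0.26 and 0.40, the last over 2 measured genes.

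**Figure D5:**
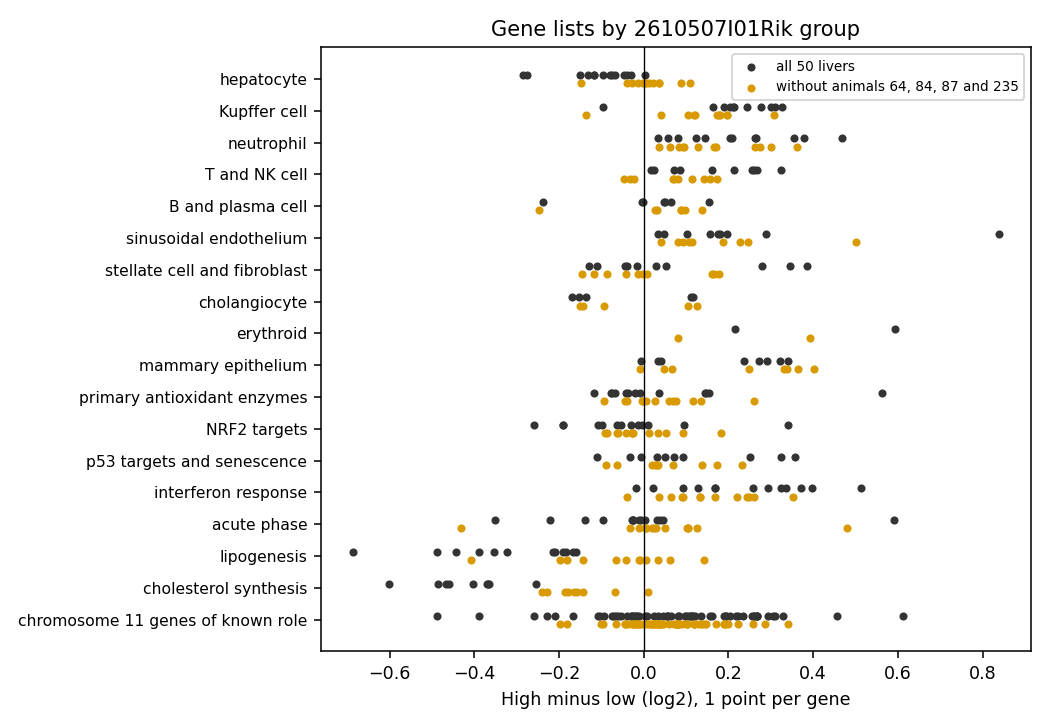
Difference between high and low livers in log2 (horizontal axis) for each measured gene of 18 lists (vertical axis), over all 50 livers (dark) and without animals 64, 84, 87 and 235 (yellow). Cholesterol synthesis and lipogenesis genes move toward 0 without those livers, from medians of −0.40 and −0.27 to −0.17 and −0.03.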

How the data were processed

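Liver RNA of 50 mice was measured on 1 Affymetrix array each. The authors deposited RMA values on the log2 scale. Expression Console 1.4.1 from Affymetrix is named in the submitters' processing notes as the software. RMA subtracts background, applies quantile normalisation and combines probes into probe sets. Genome build and probe annotation are not given in the sources used here. Of 41345 probe sets, 23521 carried 1 gene symbol in GEO's platform annotation, 1814 several and 16010 none. The probe set with the highest median was used per gene, which left 22180 genes. Gene order came from RefSeq on assembly GRCm38.p6 (21994 genes placed), and a place counts measured genes. High minus low was fitted with limma 3.58.1 in R 4.3.3 (lmFit, eBayes with trend) over 22179 genes, 2610507I01Rik left out, with Benjamini-Hochberg adjustment. p-values measure the spread between animals. Recovery was tried on these 22179 genes with the livers shuffled and known differences added to 50 genes at each size in the same fit. Of these, 56%, 92%, 100% and 100% were recovered at differences of 0.25, 0.5, 1 and 2, with 2 unchanged genes called. So many changed genes in the same fit ease the adjusted threshold. Recovery in the comparison itself, where 2 genes passed, can therefore be lower.

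The division, the lists and the stretches of animal numbers were chosen with earlier results of these data known. Named were neighbours within 25 places that were called or among the nearest 5, called genes with the smallest p or the largest differences, called list members with examples, the 10 genes most correlated with 2610507I01Rik, Erbb2 and 3 other genes that divide the livers. Smcr8, Atox1, Asgr2, Ubtd2, Csad, Mest, Serpinb9e, Pctp and list members at an unadjusted p under 0.05 were named after their values were seen. Alternatives covered gene filters, probe choice, array centring, ranks, covariates and livers left out.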

Additional observations from a re-analysis of the deposited data

How the results depend on the processing

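The 2 called genes became 0 on normal scores of ranks. There Pttg1, Gm12248, Smcr8 and Asgr2 shared a limma adjusted p of 0.0893, with differences of 1.27, −1.25, 1.24 and −1.31 in that order. The count was 1 with the 2610507I01Rik signal as a number in place of the groups, where Pttg1 alone passed. Without the 4 livers that stand apart 5 genes passed, and with all 41344 other probe sets as features 4 did, an alternative added after the data were seen. The counts on chromosome 11 were the same as these over named genes: 0, 1 and 5. Among the other alternatives on named genes 2 or 3 genes passed, all on chromosome 11. Under none of the alternatives on named genes did a gene of another chromosome or one of the 50 neighbours pass limma's adjusted threshold. With each liver left out in turn, also added later, the count was 2 in 41 and 3 in 9 of 50 fits, and Pttg1 and Gm12248 passed in all 50. Smcr8 passed in addition without animal 64, 142, 171, 179, 253, 282 or 301, and Atox1 without 84 or 87. The smallest limma adjusted p of Smcr8 was 0.00368, without animal 179. Leaving out animal 282 repeats the fit without livers near the threshold of the split. With genes below the median level left out, Gm12248 was not tested.

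Among the chosen genes followed through the alternatives, signs turned only for genes with no call. Signs of other genes were not followed. Serpina1d had 0.14 with the first array component as a term, 0.13 on normal scores and 0.095 without the 4 livers. B4galnt1 had −0.045 with that component and −0.035 per unit of the 2610507I01Rik signal. No paired analysis was possible because the labels give 1 group, in which animal numbers pair no livers.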

Other observations

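With every probe set taken as a feature, 2 that carry no gene symbol in the annotation used passed limma's adjusted threshold beside those of Pttg1 and Gm12248. Probe set 17248348 had 3.08 to 6.50 with a median of 3.79 in the low livers and 3.12 to 7.04 with a median of 6.15 in the high livers, a difference of 1.65 ± 0.30 (SE; limma, adjusted p = 0.0138). Probe set 17249924 had 2.32 to 3.63 with a median of 2.92 in the low livers and 2.77 to 5.18 with a median of 3.69 in the high livers, a difference of 0.77 ± 0.14 (SE; limma, adjusted p = 0.0136). Both differences exceed that of Pttg1. The genes and positions of these probe sets were not analysed here.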
